A study of Mus musculus with 12 samples.

Results

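The T cell receptor (TCR) signalling machinery was followed through 38 mouse genes, listed by name and grouped by what their products do: 5 receptor chains with the coreceptor Cd4, 5 surface proteins, 5 kinases, 10 adaptors and effector enzymes, and 13 regulators that are mostly negative. All 38 were on the array and all 38 were tested, among 17925 genes tested in all. A gene was read from its probe with the highest mean, and that probe was well above background on all 12 arrays for every member. The study measured bulk gene expression in cultured T helper cells to describe Th9 cells, the CD4+ T cells that make IL-9, with 3 arrays for each of 4 groups. Every group started from naive CD4+CD62L+ T cells of C57BL/6 mice, sorted magnetically out of spleen and lymph nodes and activated with anti-CD3 on the plate and anti-CD28 in solution, so all 4 had been stimulated through the TCR at the outset. Cultures were expanded on day 3 and ended on day 5. Stimulated Th9 cells had grown with IL-4 at 20 ng/ml, TGF-β at 2 ng/ml and an antibody to IFN-γ, and then met anti-CD3 at 1 µg/ml for 6 h. Th9 cells had the same culture without that last step. Th2 cells had IL-4 and the antibody to IFN-γ but no TGF-β. Treg cells, the regulatory T cell culture, had TGF-β and an antibody to IL-4, with IL-2 added at expansion. Whether the 3 samples of a group are separate cultures or mice is not stated in the labels. The p-values therefore reflect the spread among these samples alone, and that spread may be technical.

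The TCR recognises peptide on MHC molecules but has no enzyme of its own. The kinase Lck, carried to the receptor by CD4 or CD8, phosphorylates the CD3 and zeta chains. Zap70 docks there and phosphorylates the scaffolds Lat and Lcp2 (SLP-76). The complex on Lat activates Plcg1, whose products open the calcium, protein kinase C and Ras branches. Phosphatases, ubiquitin ligases, diacylglycerol kinases and the kinase Csk hold the pathway down at rest and end the response. T cells are known to reset the amounts of some of these proteins after activation.

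A level here is the log2 of the scanner's processed signal minus the 75th percentile of its array, so that each further unit is a doubling. Levels of different genes come from different probes and are not compared with each other. A difference is the mean level of the group named first minus that of the second, given with its standard error (SE) from the limma model, and a gene is called higher or lower where its p-value, adjusted over the 17925 genes, is under 0.05. Values of a gene's further probes come from the same model fitted to all probes tested, with p-values adjusted over probes. In bulk RNA, fewer cells of a type and less RNA per cell cannot be told apart.

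Arrays of a group correlated at 0.988 to 0.995 over the genes tested, and 59.9 to 63.7% of probes per array were well above background. Il9 was well above background on all Th9 arrays and on no Th2 or Treg array. Foxp3 averaged -1.98 in Th9 cells against 0.57 in Treg cells. Il2ra went the other way, at 3.86 in Th9 cells and 3.03 in Th2 cells against 1.93 in Treg cells. Gata3 averaged 5.01 in Th9, 4.77 in Th2 and 3.15 in Treg cells. The activation genes Cd69, Nr4a1 and Egr2 rose with stimulation by 2.5, 3.13 and 4.45. The names of the deposited scans place the arrays on 3 slides. Slide 1 held the 3 Th2 arrays and Treg array 1. Slide 2 held Treg arrays 2 and 3 and stimulated Th9 arrays 1 and 2. Slide 3 held stimulated Th9 array 3 and the 3 Th9 arrays. No slide held Th9 with Th2 or with Treg arrays.

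Stimulated Th9 array 3 and the Treg arrays stood apart in markers of other cells, summed as signal in multiples of the array's 75th percentile. The 7 tested markers of CD8 T and NK cells summed to 4.59 on stimulated array 3, against 30.1 and 31.7 on the other stimulated arrays and 20.7 to 52.7 over the remaining 9. Cd8a and Cd8b1, which define CD8 T cells, were well above background on all 12 arrays, and Cd8a stood at -2.23 on stimulated array 3 against 2.47 and 2.29 on its fellows. The 10 B cell markers summed to 1.14, 3.4 and 4.58 in stimulated Th9 cells, 6.35 to 8.8 in Th9 cells, 3.55 to 6.06 in Th2 cells and 78.4 to 111 in Treg cells, with all 10 well above background on every Treg array. Of these markers, Blk and Fcrla were not well above background on any stimulated array. The myeloid markers Lyz2 and Itgam were well above background on the 3 Treg arrays alone, although the 9 tested myeloid and dendritic cell markers together summed to 1.17 to 1.34 in stimulated Th9 cells, 2.46 to 3.35 in Th9 cells, 2.8 to 3.58 in Th2 cells and 1.74 to 3.09 in Treg cells. The 10 pan T markers, all of them among the 38 members, summed to 357 to 411 in stimulated Th9 cells, 319 to 365 in Th9 cells, 377 to 394 in Th2 cells and 561 to 681 in Treg cells. 

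**Figure D1:**
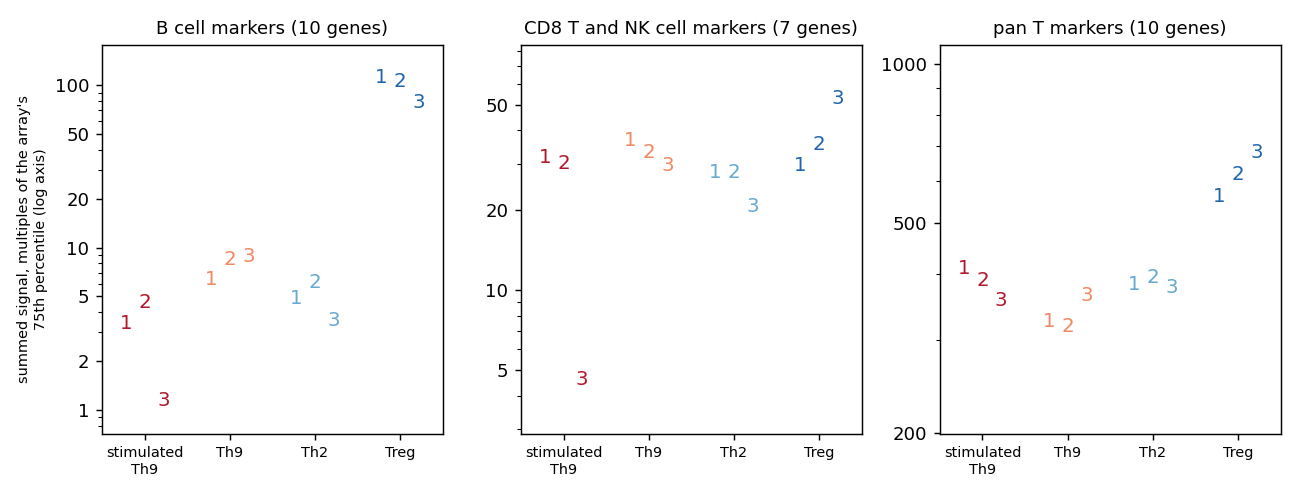
Summed signal of 3 lists of cell type markers on each array, on a log axis in multiples of the array's 75th percentile; digits are array numbers, coloured by group. Stimulated Th9 array 3 lies below the other arrays for the CD8 T and NK cell list at 4.59, and the 3 Treg arrays lie above all others for the B cell list at 78.4 to 111.

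Promoter sequences from RefSeq (GRCm38.p6) were at hand for 29 of the 38 members, at the first start listed for each gene, and were read over the 250 bases before the start. The motif AGGAAG, a core bound by ETS family factors, stood in 19 of these 29 windows on either strand (65.5%), beside 29.2% of the 27025 genes with an entry. TGTGGT, bound by RUNX factors, was found in 3 of 29 (10.3%, 14.2% of all). GGAAAA, the NFAT core, was found in 8 (27.6% and 20.6%), and TGANTCA, the AP-1 site, in 0 (0% and 6.87%). TGACGT was found in 3 (10.3% and 6.56%) and GGGCGG in 12 (41.4% and 32.9%). None of these motifs lies within another, though AGGAAG and GGAAAA share the letters GGAA and can share bases. These are matches of letters in 1 window, not measured sites. The 5 windows below belong to members that the results turn on: Txk and Trat1, which fell furthest after stimulation, Cd5, which rose after it, and Cd3d and Cd3e, which lie next to each other on chromosome 9, with Cd3g on the far side of Cd3d. Each is written 5′ to 3′ toward its gene, with AGGAAG or its reverse complement CTTCCT in capitals. The Txk window is chr5:72752778-72753027 on the minus strand. That of Trat1 is chr16:48772063-48772312 on the minus strand and holds no match. That of Cd5 is chr19:10738975-10739224 on the minus strand, that of Cd3d is chr9:44981536-44981785 on the plus strand and that of Cd3e is chr9:45009612-45009861 on the minus strand.
Txk: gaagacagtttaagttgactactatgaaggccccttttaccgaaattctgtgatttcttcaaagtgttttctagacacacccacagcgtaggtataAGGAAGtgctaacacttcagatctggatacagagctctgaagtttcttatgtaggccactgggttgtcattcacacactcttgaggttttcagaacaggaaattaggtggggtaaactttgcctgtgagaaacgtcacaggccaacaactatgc
Trat1: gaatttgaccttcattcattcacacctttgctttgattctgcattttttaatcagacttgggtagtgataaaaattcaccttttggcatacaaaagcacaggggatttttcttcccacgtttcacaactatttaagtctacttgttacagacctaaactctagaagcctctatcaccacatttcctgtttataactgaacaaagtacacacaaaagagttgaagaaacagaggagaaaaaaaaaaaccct
Cd5: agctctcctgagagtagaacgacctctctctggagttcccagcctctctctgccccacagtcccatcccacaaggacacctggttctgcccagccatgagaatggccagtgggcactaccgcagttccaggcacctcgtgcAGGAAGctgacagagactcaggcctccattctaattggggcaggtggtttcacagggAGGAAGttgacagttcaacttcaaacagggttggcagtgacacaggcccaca
Cd3d: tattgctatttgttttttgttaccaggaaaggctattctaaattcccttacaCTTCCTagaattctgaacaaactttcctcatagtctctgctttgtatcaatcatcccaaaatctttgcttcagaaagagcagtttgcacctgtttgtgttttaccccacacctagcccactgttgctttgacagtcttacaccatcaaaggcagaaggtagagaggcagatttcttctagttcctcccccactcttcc
Cd3e: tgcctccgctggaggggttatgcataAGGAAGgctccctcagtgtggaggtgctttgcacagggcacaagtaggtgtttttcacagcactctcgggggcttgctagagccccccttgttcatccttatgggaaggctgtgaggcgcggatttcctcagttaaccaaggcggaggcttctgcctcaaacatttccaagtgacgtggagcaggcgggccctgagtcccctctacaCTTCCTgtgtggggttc

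Over the 4 groups, Treg cells had the highest mean level for 25 of the 38 members, stimulated Th9 cells for 6, Th2 cells for 5 and Th9 cells for 2. Stimulated Th9 cells had the lowest mean for 18 members, Th2 cells for 10, Th9 cells for 7 and Treg cells for 3. The same tallies were not made over all genes, so how far these depart from the background is not known. The spread of group means was widest for Txk, a kinase of the Tec family, at 6.54, followed by Dgka, a diacylglycerol kinase, at 3.34, and narrowest for the phosphatase gene Ptpn6 (SHP-1) and the adaptor gene Bcl10, at 0.45 each. Every member was called in at least 1 of the 4 comparisons, and 5 were called in all 4: Cd5, Cd6, Ptprc, Trat1 and Csk. These counts were not made over all genes either, so they do not set the members apart. After stimulation alone, 33.2% of all genes tested were called higher and 30.5% lower. The comparisons share arrays, so they are not independent of each other.

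**Figure D2:**
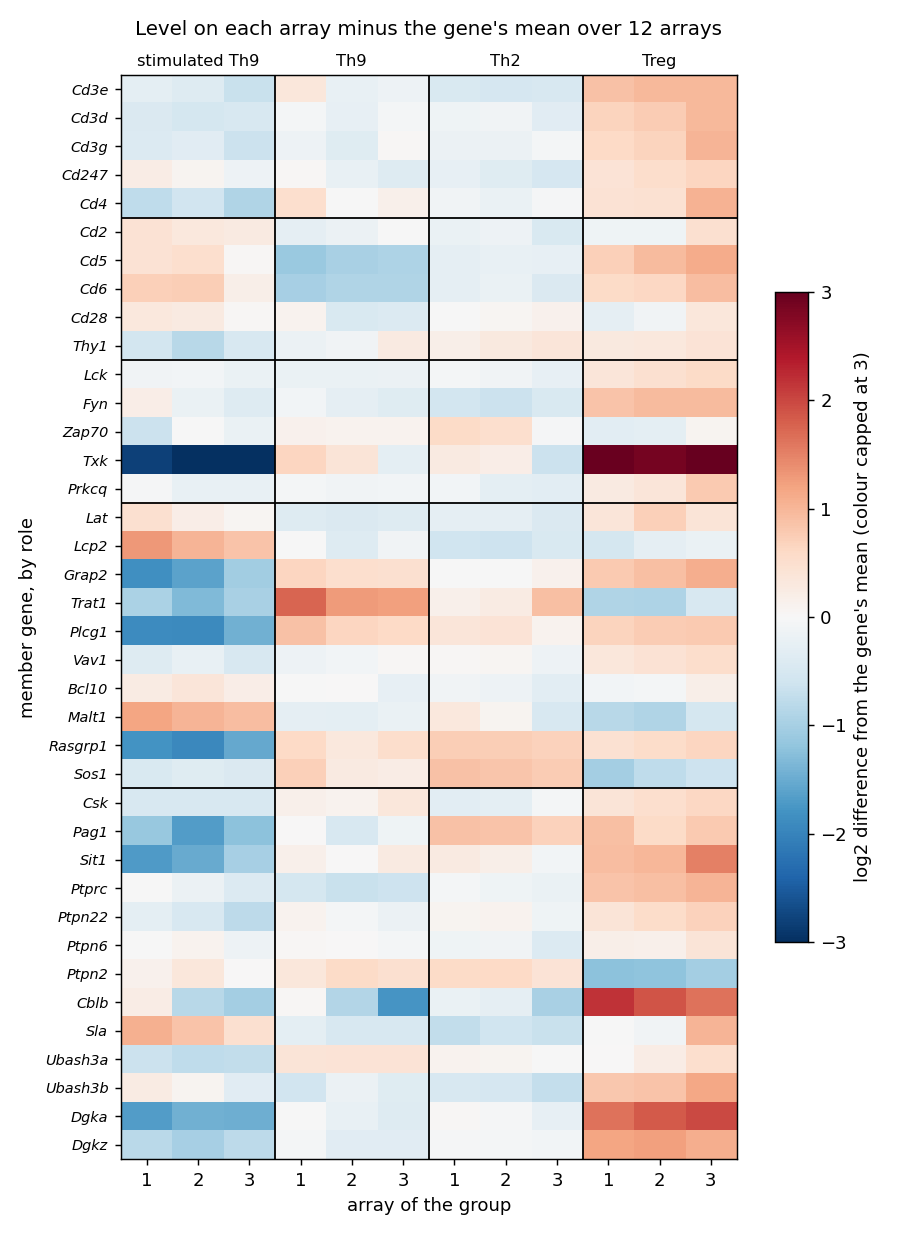
Level of each of the 38 members on each of the 12 arrays minus the gene's mean over all arrays, in log2 units with the colour capped at 3, with genes grouped by role (receptor chains and Cd4, surface proteins, kinases, adaptors and effectors, regulators) and arrays by group. Treg columns are above the gene's mean for most rows, with Lcp2, Trat1, Malt1, Sos1 and Ptpn2 below it on all 3 Treg arrays, and Txk spans the widest range.

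The 6 h of anti-CD3 were followed by changes in both directions. Of the 38 members, 10 were higher and 19 lower in stimulated Th9 than in Th9 cells, beside 33.2% of all genes tested called higher and 30.5% called lower, so 26.3% of members were higher and 50% lower. The median difference was -0.31 over members and 0.02 over all genes. The kinase Txk, adaptors and enzymes between Lat and Ras, and several negative regulators were lower, while the surface receptors Cd5 and Cd6, the scaffold gene Lcp2 and Malt1 were higher. Under quantile normalization 5 members were higher and 24 lower, with a median of -0.58: Cd2, Cd28, Lat, Bcl10 and Ptprc were no longer called higher, and Cd3g, Lck, Zap70, Prkcq and Ptpn6 were called lower. Without stimulated array 3, 11 were higher and 16 lower: Cd3e, Vav1 and Ptpn2 lost their calls and Ubash3b gained one. On slide 3, the only slide with both groups, that array set against the 3 Th9 arrays gave 5 higher and 17 lower. With 1 array in an arm, the spread comes from the other groups, and the lone array is assumed to vary as they do. All 29 called members kept their direction. The calls of Cd3d, Cd2, Cd28, Thy1, Bcl10, Ptprc and Sla were lost there. Markers of other cells moved as well: 6 of 10 B cell markers and 5 of 7 CD8 T and NK cell markers were lower after stimulation and none was higher, with the sums given above. Of 9 myeloid and dendritic cell markers, 4 were lower and 2 higher. Their part in the result was not tested.

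**Figure D3:**
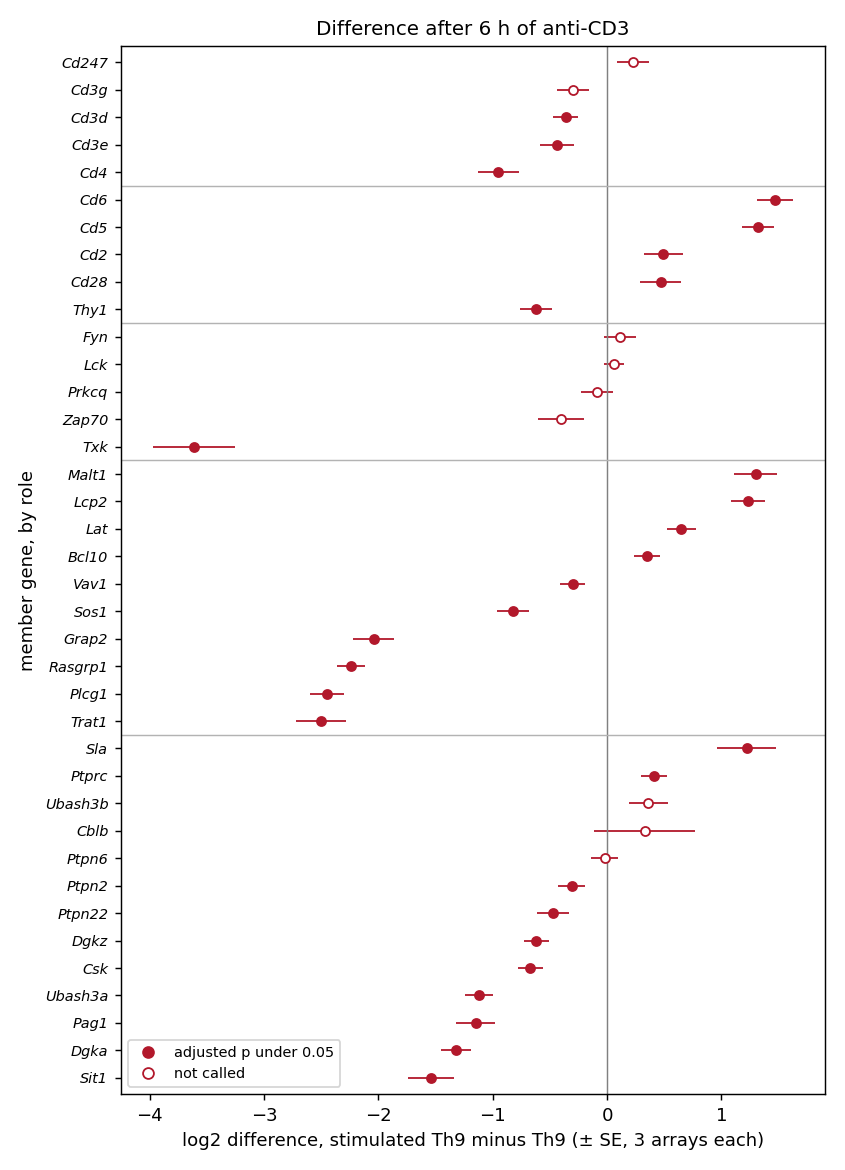
Log2 difference between stimulated Th9 and Th9 cells for each member with its SE (3 arrays each), ordered by role and then by size; filled points were called. Txk is farthest below 0 at -3.61 and Cd6 farthest above it at 1.47, and 4 of 5 kinases were not called.

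Among the receptor chains, 3 of 5 were lower after stimulation and none was higher. Cd3e, the epsilon chain of CD3, stood at 0.53, 0.42 and 0.15 in stimulated Th9 cells, 1.15, 0.59 and 0.66 in Th9 cells, 0.35, 0.32 and 0.34 in Th2 cells and 1.69, 1.79 and 1.78 in Treg cells. Stimulated and unstimulated Th9 arrays did not overlap, and the difference was -0.44 ± 0.15 (adjusted p = 0.0266), but the call was lost without Th9 array 1 or without stimulated array 3, where adjusted p was 0.0967. Cd4, the coreceptor that brings Lck to the receptor, stood at -0.33, -0.15 and -0.47 in stimulated Th9 cells, 0.93, 0.4 and 0.57 in Th9 cells, 0.32, 0.22 and 0.38 in Th2 cells and 0.85, 0.88 and 1.46 in Treg cells. Its stimulated arrays were the lowest of the 12 and it was 1.93-fold lower after stimulation (log2 difference -0.95 ± 0.18, adjusted p = 0.000962), and a second probe gave -0.98. Cd3d, the delta chain, fell by less (log2 difference -0.36 ± 0.11, adjusted p = 0.0158) and lost its call without Th9 array 3. Cd3g, the gamma chain, gave -0.3 (adjusted p = 0.0828) and Cd247, the zeta chain, 0.23 (adjusted p = 0.174), neither called. The 4 probes of Cd247 disagreed: the 2 brighter ones gave 0.23 and 0.04, and the 2 dimmer ones -2.79 and -1.95, both called.

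Surface proteins that tune or support the receptor were higher for 4 of 5 members. Cd6, a scavenger receptor family protein at the synapse, had levels of 7.48, 7.5 and 6.94 in stimulated Th9 cells, 5.77, 5.86 and 5.86 in Th9 cells, 6.5, 6.56 and 6.34 in Th2 cells and 7.35, 7.38 and 7.69 in Treg cells. All stimulated arrays lay above all Th9 arrays. Cd6 was 2.78-fold higher (log2 difference 1.47 ± 0.16, adjusted p = 1.1e-05), with 1.17 from a second probe. Cd5, its relative and a damper of TCR signals, had levels of 6.94, 6.99 and 6.54 in stimulated Th9 cells, 5.39, 5.52 and 5.58 in Th9 cells, 6.22, 6.27 and 6.24 in Th2 cells and 7.21, 7.44 and 7.62 in Treg cells. Th9 arrays were the lowest of the 4 groups for both genes, which lie on chromosome 19 with 1 gene between them. Cd5 was 2.5-fold higher after stimulation (log2 difference 1.32 ± 0.14, adjusted p = 1.16e-05). Cd28, the costimulatory receptor, had levels of 2.1, 2.06 and 1.83 in stimulated Th9 cells, 1.89, 1.33 and 1.38 in Th9 cells, 1.78, 1.85 and 1.91 in Th2 cells and 1.51, 1.68 and 2.12 in Treg cells, and its 2 groups of Th9 arrays overlapped. Its increase was 0.47 ± 0.18 (adjusted p = 0.0438) and lost its call without Th9 array 2 or 3 or stimulated array 1 or 2, with an adjusted p of up to 0.149. A second probe of Cd28 gave -0.19 and was not called. Cd2, an adhesion receptor, rose by 0.49 (adjusted p = 0.0238), a call lost without Th9 array 1 or 2 or stimulated array 1, and the GPI-anchored protein Thy1 fell by 0.62 (adjusted p = 0.00218).

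Of the kinases, 1 of 5 changed, and it was the member with the largest difference. Txk had levels of -2.58, -3.2 and -3.65 in stimulated Th9 cells, 0.86, 0.61 and -0.06 in Th9 cells, 0.5, 0.43 and -0.42 in Th2 cells and 3.18, 3.09 and 3.93 in Treg cells. The stimulated arrays lay below every other array. Txk was 12.2-fold lower after stimulation (log2 difference -3.61 ± 0.36, adjusted p = 7.1e-06), with -3.81 from a second probe that was well above background on 2 of 3 stimulated arrays, and -4.12 on slide 3. Lck had levels of 5.66, 5.69 and 5.57 in stimulated Th9 cells, 5.57, 5.57 and 5.6 in Th9 cells, 5.71, 5.66 and 5.52 in Th2 cells and 6.14, 6.26 and 6.34 in Treg cells. Stimulated and unstimulated Th9 arrays overlapped and differed by 0.06 ± 0.09 (95% interval -0.15 to 0.26, adjusted p = 0.607), although quantile normalization gave -0.22 (adjusted p = 0.0252). Zap70, the kinase that docks on the phosphorylated receptor, had levels of 4.28, 4.92 and 4.72 in stimulated Th9 cells, 5.06, 5.04 and 5.03 in Th9 cells, 5.49, 5.43 and 4.9 in Th2 cells and 4.62, 4.63 and 5.01 in Treg cells. Its stimulated arrays all lay below the Th9 arrays, at a difference of -0.4 ± 0.2 (adjusted p = 0.0936) that was not called here and was called under quantile normalization (-0.72, adjusted p = 0.00348) and under normexp background correction (adjusted p = 0.0499). Fyn, the second Src family kinase of T cells, differed by 0.11 (95% interval -0.21 to 0.43) and Prkcq, protein kinase C theta, by -0.09 (95% interval -0.39 to 0.21), neither called.

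Adaptors and effector enzymes divided into 4 higher and 6 lower, and all 10 were called. Trat1, an adaptor bound to the TCR complex, had levels of 1.42, 1.05 and 1.38 in stimulated Th9 cells, 4.11, 3.64 and 3.59 in Th9 cells, 2.52, 2.61 and 3.26 in Th2 cells and 1.47, 1.43 and 1.89 in Treg cells. Th9 arrays were the highest and stimulated Th9 arrays the lowest of the 12. Trat1 was 5.65-fold lower (log2 difference -2.5 ± 0.22, adjusted p = 3.2e-06), with -2.95 from its second probe. Plcg1, phospholipase C gamma 1, which makes diacylglycerol and the calcium-releasing messenger IP3, had levels of 1.61, 1.58 and 2.05 in stimulated Th9 cells, 4.37, 4.14 and 4.08 in Th9 cells, 3.85, 3.89 and 3.58 in Th2 cells and 4.15, 4.25 and 4.28 in Treg cells. Stimulated arrays were again the lowest. Plcg1 was 5.47-fold lower (log2 difference -2.45 ± 0.15, adjusted p = 2.45e-07), with -2.69 and -1.5 from its other probes. Rasgrp1, the exchange factor that diacylglycerol calls to the membrane to load Ras, had levels of 1.44, 1.28 and 1.68 in stimulated Th9 cells, 3.81, 3.53 and 3.76 in Th9 cells, 3.95, 3.96 and 3.92 in Th2 cells and 3.69, 3.77 and 3.87 in Treg cells. It did not overlap any other group either and was 4.71-fold lower (log2 difference -2.24 ± 0.12, adjusted p = 1.43e-07), with -1.87 from a second probe. Grap2 (GADS), which joins Lat to Lcp2, was 4.12-fold lower (log2 difference -2.04 ± 0.18, adjusted p = 2.45e-06), and its other probes gave -0.93 and -1.43. Sos1, a second Ras exchange factor, fell by 0.82 (adjusted p = 0.000473), and Vav1, an exchange factor for Rac, fell by 0.3 (adjusted p = 0.0287), a call lost under median scaling, with only the 6 arrays compared in the fit, and without any of 4 arrays (Th9 2 or 3, stimulated 1 or 3).

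The adaptors that were higher belong to the scaffold on Lat and to the complex that carries the signal to NF-κB. Malt1, the protease of that complex, had levels of 4.15, 3.98 and 3.88 in stimulated Th9 cells, 2.68, 2.66 and 2.76 in Th9 cells, 3.28, 3.04 and 2.47 in Th2 cells and 2.13, 2.06 and 2.43 in Treg cells. Stimulated arrays lay above all others. Malt1 was 2.46-fold higher than in Th9 cells (log2 difference 1.3 ± 0.19, adjusted p = 0.000114), with 1.18 from a second probe. Lcp2 had levels of 4.55, 4.27 and 4.09 in stimulated Th9 cells, 3.24, 2.85 and 3.13 in Th9 cells, 2.64, 2.61 and 2.79 in Th2 cells and 2.71, 2.97 and 3.04 in Treg cells. Its stimulated arrays were likewise the highest of the 12, and the increase was 2.35-fold (log2 difference 1.23 ± 0.15, adjusted p = 2.99e-05). Lat, the membrane scaffold, had levels of 5.64, 5.37 and 5.23 in stimulated Th9 cells, 4.78, 4.73 and 4.77 in Th9 cells, 4.89, 4.89 and 4.73 in Th2 cells and 5.54, 5.87 and 5.55 in Treg cells. Stimulated and Treg arrays were above Th9 and Th2 arrays. Lat rose by 0.65 ± 0.13 over Th9 cells (adjusted p = 0.00105), by 0.47 on slide 3 (adjusted p = 0.0471) and by 0.34 under quantile normalization, where it was not called (adjusted p = 0.0578). Bcl10, the partner of Malt1, rose by 0.35 ± 0.11 (adjusted p = 0.0203), and its second probe gave -0.32 (adjusted p = 0.253). The call was lost on slide 3 (0.27, adjusted p = 0.2) and without Th9 array 3 or stimulated array 2.

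Regulators were lower for 8 of 13 members and higher for 2. The largest decreases were those of Sit1, a transmembrane adaptor that recruits the phosphatase SHP-2 (log2 difference -1.54 ± 0.2, adjusted p = 5.74e-05), Dgka, which removes diacylglycerol (log2 difference -1.32 ± 0.13, adjusted p = 7.95e-06), Pag1, the membrane anchor of Csk (log2 difference -1.15 ± 0.17, adjusted p = 0.000139), and Ubash3a, a regulator of the STS family (log2 difference -1.12 ± 0.12, adjusted p = 1.12e-05). A second probe of Pag1, well above background on 2 of 3 stimulated arrays, gave -0.33 and was not called, and another was not well above background on most arrays. Dgkz, the other diacylglycerol kinase, fell by 0.62. Its second probe, well above background on 2 of 3 stimulated arrays, gave 0.03 and was not called. Csk, which phosphorylates the inhibitory tyrosine of Lck, fell by 0.67, and Ptpn22, a phosphatase that works with Csk, by 0.47. Ptprc (CD45), the phosphatase that clears that same tyrosine, had levels of 5.66, 5.48 and 5.26 in stimulated Th9 cells, 5.14, 4.99 and 5.05 in Th9 cells, 5.6, 5.54 and 5.46 in Th2 cells and 6.51, 6.56 and 6.69 in Treg cells. Stimulated arrays lay above Th9 arrays and below Treg arrays. Ptprc rose by 0.41 ± 0.11 (adjusted p = 0.00891), but 3 other probes gave -0.19, 0 and 0.03, and the value on slide 3 was 0.2 (adjusted p = 0.263). Sla (SLAP), an adaptor that sends TCR chains for degradation, rose by 1.22 ± 0.26 (adjusted p = 0.00173) and gave 0.91 on slide 3 (adjusted p = 0.0554), with 0.65 from a second probe, not called. Ptpn2 was lower by its brighter probe (-0.31, adjusted p = 0.0403) and higher by its dimmer one (0.85, adjusted p = 0.00136), so its direction was not settled. Without stimulated array 3 the brighter probe gave -0.24 and was not called (adjusted p = 0.126). Ubash3b gave 0.36 and was not called (adjusted p = 0.0828), but without that array it was called higher at 0.53 (adjusted p = 0.0124). Cblb and Ptpn6 gave 0.33 and -0.02 and were not called.

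**Figure D4:**
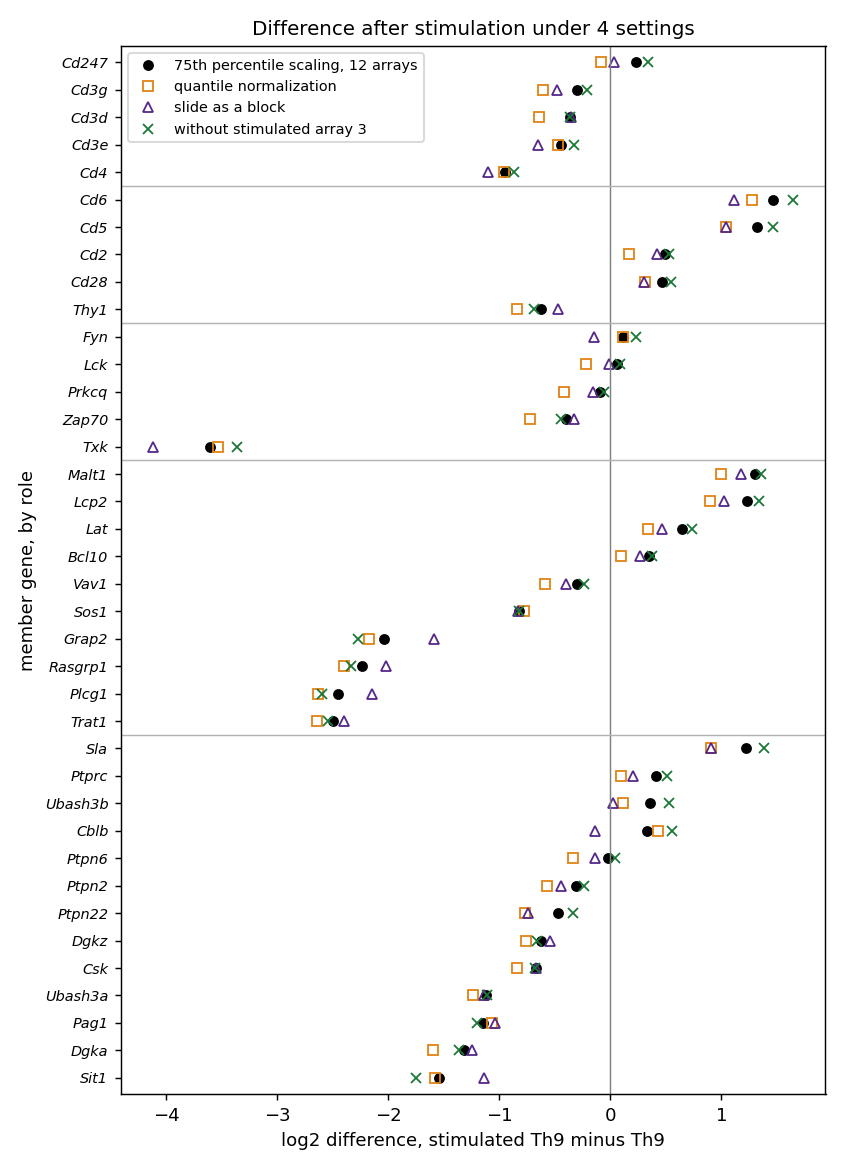
Log2 difference between stimulated Th9 and Th9 cells for each member under 4 settings: the 75th percentile scaling used throughout, quantile normalization, slide as a block, and without stimulated array 3. The large decreases of Txk, Trat1, Plcg1, Rasgrp1 and Grap2 and the increases of Cd6, Cd5, Malt1 and Lcp2 stay on their side of 0 under all 4, whereas small differences such as that of Lck cross it.

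Other genes of the pathway, 72 in a list of kinases, adaptors, calcium, Ras and NF-κB components, included 21 that were higher (29.2%) and 34 that were lower (47.2%), with a median of -0.34. The largest increases were those of the receptor phosphatase gene Ptprj (CD148, log2 difference 2.62 ± 0.14, adjusted p = 1.23e-07), the phosphatase gene Ptpn4 (log2 difference 2.54 ± 0.1, adjusted p = 6.19e-08) and Ptpn7, a phosphatase of MAP kinases (log2 difference 1.22 ± 0.11, adjusted p = 4.06e-06). The largest decreases were those of Fyb (ADAP), an adaptor bound to Lcp2 (log2 difference -3 ± 0.15, adjusted p = 1.06e-07), Sla2, a relative of Sla (log2 difference -2.68 ± 0.24, adjusted p = 3.11e-06), and Pdk1 (log2 difference -3.91 ± 0.22, adjusted p = 2.1e-07). In mouse the symbol Pdk1 names a mitochondrial kinase of pyruvate dehydrogenase, whereas the kinase of the PI3K branch is Pdpk1, which fell by 0.37 (adjusted p = 0.0227).

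Between Th9 and Th2 cells, which differ by TGF-β in the culture, 6 of 38 members were called. In Th9 cells 2 of 38 members were higher and 4 of 38 lower, beside 7.76% of all genes called higher and 9.25% called lower, so both shares were near the background. The median difference was 0 over members and -0.03 over all genes. Trat1 and Csk were higher in Th9 cells, and Pag1, Cd5, Cd6 and Ptprc were lower. No slide held both groups, so there is no within-slide value. A fit with slide as a block, which joins them through the Treg and stimulated arrays, called 0 of the 38 members by limma. It ties slide 3 to the others by stimulated array 3 alone, which stood apart in CD8 T and NK cell markers, and slide 1 by Treg array 1 alone. A slide effect and what sets these single arrays apart cannot be told apart there. In that fit the 6 members kept their direction, and the count over all genes was 188 higher and 129 lower. Quantile normalization gave 5 higher and 4 lower members and normexp background correction 6 and 5. Of the markers of other cells, 3 of 10 B cell and 1 of 7 CD8 T and NK cell markers were higher in Th9 cells, with the sums given above, and their part in the result was not tested.

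The receptor chains, the kinases and 9 of 10 adaptors were not called between these cultures. Lck differed by -0.05 ± 0.09 (95% interval -0.25 to 0.16), Zap70 by -0.23 ± 0.2 (-0.66 to 0.21), Lat by -0.07 ± 0.13 (-0.36 to 0.21), Cd4 by 0.33 ± 0.18 (-0.08 to 0.74) and Cd28 by -0.31 ± 0.18 (-0.72 to 0.09). Cd3e was higher on every Th9 array than on any Th2 array, at 0.46 ± 0.15, and missed the threshold (adjusted p = 0.0609), while normexp background correction gave an adjusted p of 0.0278. Trat1, whose Th9 arrays were above its Th2 arrays, was 1.98-fold higher in Th9 cells (log2 difference 0.98 ± 0.22, adjusted p = 0.014), and a second probe gave 1.25 (adjusted p = 0.00514). Csk had levels of 1.85, 1.86 and 1.86 in stimulated Th9 cells, 2.48, 2.43 and 2.67 in Th9 cells, 2.02, 2.03 and 2.27 in Th2 cells and 2.72, 2.83 and 2.95 in Treg cells. The Th9 arrays lay above the Th2 arrays, and the difference was 0.43 ± 0.11 (adjusted p = 0.0228), with 0.61 from a second probe. Among members not called, second probes were called lower for Cd28 (-0.84), Thy1 (-0.59) and Ptpn2 (-0.71) and higher for Plcg1 (0.53).

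Pag1, the anchor that holds Csk at the membrane, moved the other way, with levels of -2.04, -2.6 and -2.15 in stimulated Th9 cells, -0.91, -1.39 and -1.05 in Th9 cells, -0.03, -0.06 and -0.22 in Th2 cells and -0.02, -0.35 and -0.13 in Treg cells. Th2 and Treg arrays were close together and above both kinds of Th9 arrays. Pag1 was 2.02-fold lower in Th9 than in Th2 cells (log2 difference -1.01 ± 0.17, adjusted p = 0.00309), while its second probe gave -0.28, not called. Cd5 was 1.67-fold lower in Th9 cells (log2 difference -0.74 ± 0.14, adjusted p = 0.00583) and Cd6 1.55-fold lower (log2 difference -0.63 ± 0.16, adjusted p = 0.0196), each without overlap of the arrays, though a second probe of Cd6 was not called (-0.37). Ptprc gave -0.48 ± 0.11 (adjusted p = 0.0178), and its 3 other probes gave -0.43, -0.43 and -0.95. Pag1 and Cd5 kept their calls whichever array was left out. Trat1 lost its call without Th2 array 1 or 2 or Th9 array 1, Csk without Th2 array 1 or 2 or Th9 array 3, Cd6 without Th2 array 1 or 2 or Th9 array 1 or 2, and Ptprc without Th2 array 1 or 2 or Th9 array 2, with adjusted p-values of up to 0.0828. Of the 72 other pathway genes 5 were higher and 8 lower (6.94% and 11.1%), against 0 and 3 with slide as a block, where no increase was called, and 12 higher under normexp background correction. The largest were the adaptor genes Tespa1 (log2 difference -2.22 ± 0.14, adjusted p = 8.69e-06) and Themis (log2 difference -0.88 ± 0.17, adjusted p = 0.00576), both known from thymocyte selection, and Ppp3ca, a catalytic subunit of calcineurin (log2 difference -1.26 ± 0.11, adjusted p = 4.91e-05), which were lower. The exchange factor gene Vav3 (0.64), the adaptor gene Lax1 (0.61) and Pik3r1, the regulatory subunit of PI3K (0.58) were higher in Th9 cells.

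Against Treg cells, most of the machinery was lower in both IL-4 cultures. Compared with Treg cells, Th9 cells had 4 members higher and 22 lower, beside 28.7% of all genes called higher and 35.3% called lower. Th2 cells had 5 higher and 25 lower, beside 29.3% and 33.5% of all genes. That is 57.9% and 65.8% of members lower, and the medians were -0.57 and -0.71, beside -0.11 and -0.08 over all genes. Both comparisons use the same 3 Treg arrays. In each, the chains of CD3 and zeta, Lck, Fyn, Txk, Lat and 9 of 13 regulators were lower, and Trat1, Sos1, Malt1 and Ptpn2 were higher. Slide 1 holds the Th2 arrays with Treg array 1, and there 4 members were higher and 19 lower, with all 30 calls of that comparison in the same direction. Th9 and Treg arrays share no slide, and stimulated array 3 alone ties the slide of the Th9 arrays to the others. A fit with slide as a block gave 3 members higher and 15 lower, with all 26 calls in the same direction. That fit lost the Th9 calls of Cd3e, Cd247, Prkcq, Vav1, Malt1, Csk, Ptpn22, Cblb and Sla, at adjusted p-values of 0.0913 to 0.515. It also called Grap2 lower in Th9 cells, which the main fit did not. On slide 1, where Treg array 1 stands alone and the spread comes from the other groups, the Th2 calls of Cd4, Zap70, Plcg1, Vav1, Ptpn22, Ptpn6 and Sla were lost, at 0.0697 to 0.153.

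Markers of B cells moved with these differences: 9 of 10 were lower in Th9 and 10 of 10 in Th2 than in Treg cells, and their sums, given above, did not overlap. Pan T markers, all of them members, were lower for 7 of 10 in each comparison. Of 9 myeloid and dendritic cell markers, 3 were higher and 5 lower in Th9 cells and 3 higher and 4 lower in Th2 cells. Of 7 CD8 T and NK cell markers, 1 was higher and 1 lower in Th9 cells, and 1 higher and 2 lower in Th2 cells. Ptprc, Ptpn6 and Csk are known to be expressed by B cells too. The part of other cells in the differences from Treg cells was not tested.

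**Figure D5:**
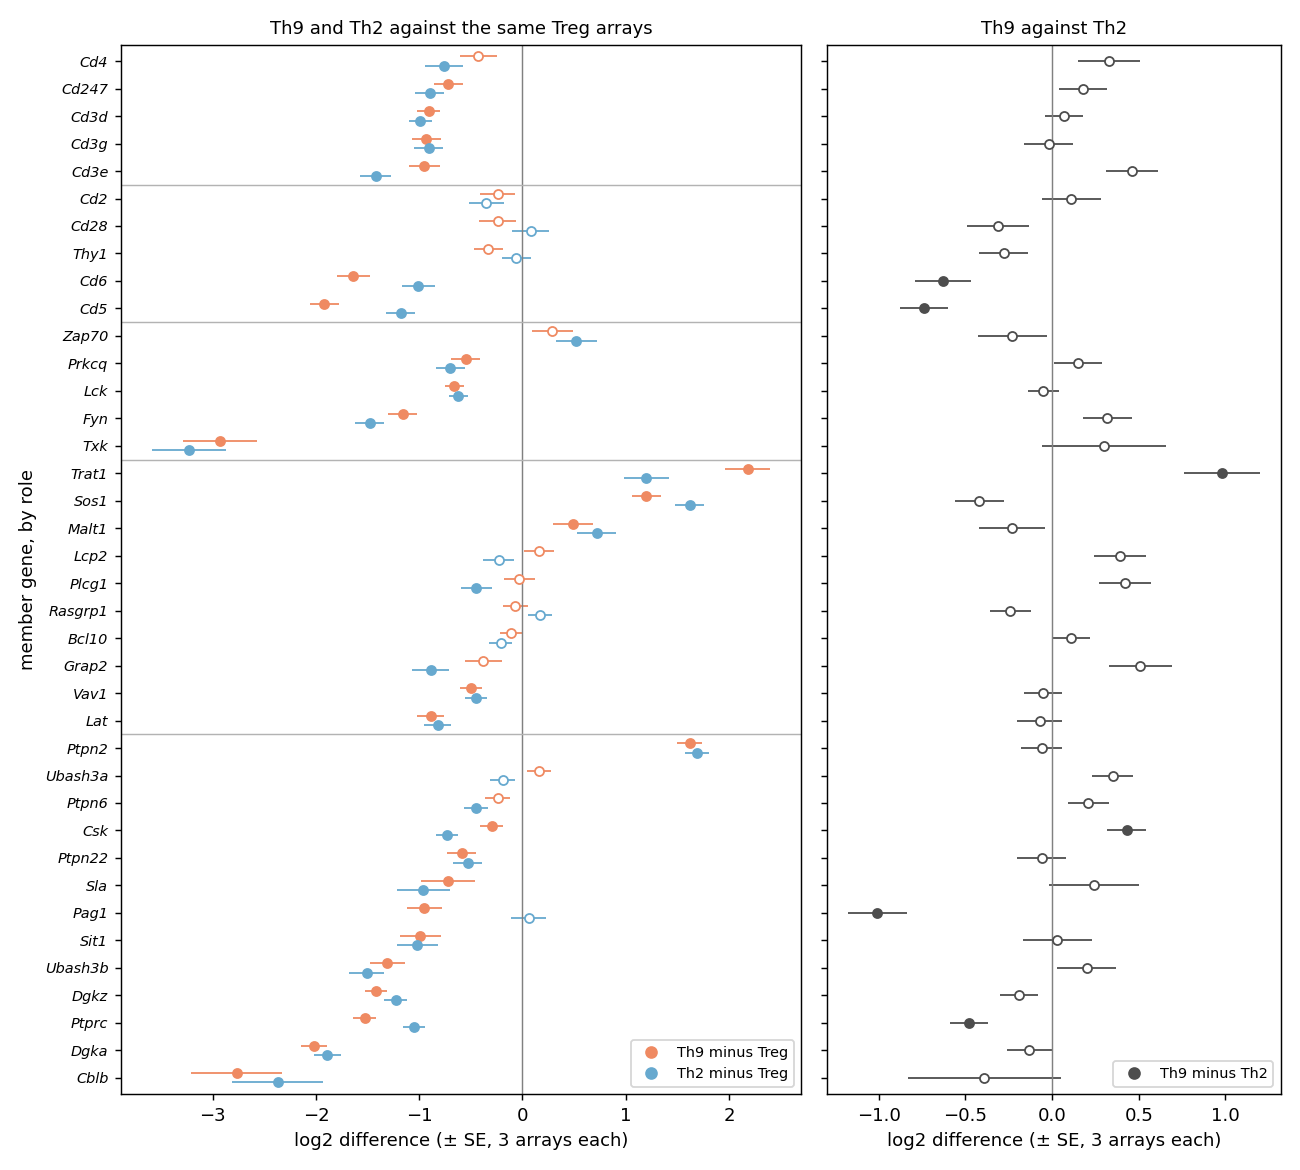
Left, log2 difference of Th9 and of Th2 cells from the same 3 Treg arrays for each member, with SE; right, the difference between Th9 and Th2 cells on its own scale. Filled points were called; Txk and Cblb are farthest below 0 in both comparisons with Treg cells, and Trat1, Sos1, Malt1 and Ptpn2 are above it in both.

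Receptor chains were lower for 4 of 5 members in Th9 and 5 of 5 in Th2 cells. Cd3e was 1.94-fold lower in Th9 (log2 difference -0.95 ± 0.15, adjusted p = 0.00026) and 2.67-fold lower in Th2 cells (log2 difference -1.42 ± 0.15, adjusted p = 1.42e-05) than in Treg cells, and the Treg arrays, at 1.69 to 1.79, lay above all others. With slide as a block the Th9 value was -0.66 and not called (adjusted p = 0.0913). Its neighbours Cd3d and Cd3g gave -0.91 and -0.93 in Th9 and -0.99 and -0.91 in Th2 cells, all called. Cd247 gave -0.72 and -0.9 by its brightest probe, but its dimmest probe was higher in Th9 cells (0.54, adjusted p = 0.00188). Cd4 gave -0.43 ± 0.18 in Th9 cells (adjusted p = 0.0613), where arrays overlapped, and -0.76 ± 0.18 in Th2 cells (adjusted p = 0.00427), or -0.54 on slide 1 (adjusted p = 0.112), and its second probe was called in neither. Among surface proteins Cd5 was 3.8-fold lower in Th9 (log2 difference -1.92 ± 0.14, adjusted p = 8.96e-07) and 2.27-fold lower in Th2 cells (log2 difference -1.18 ± 0.14, adjusted p = 3.18e-05), and Cd6 followed at -1.64 and -1.01. Cd2, Cd28 and Thy1 were called in neither, with Cd28 at -0.24 ± 0.18 (95% interval -0.64 to 0.17) and 0.08 ± 0.18 (-0.33 to 0.48). Second probes were called lower for Cd28 in Th9 cells (-0.8) and for Thy1 in both (-0.92 in Th9 and -0.33 in Th2 cells).

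Kinases were lower for 4 of 5 members in each comparison. Txk was 7.62-fold lower in Th9 (log2 difference -2.93 ± 0.36, adjusted p = 4.1e-05) and 9.37-fold lower in Th2 cells (log2 difference -3.23 ± 0.36, adjusted p = 1.97e-05) than in Treg cells. Its Treg arrays, at 3.09 to 3.93, were separate from the Th9 and Th2 arrays, which overlapped each other between -0.42 and 0.86, and its second probe gave -2.86 and -3.45. Fyn gave -1.16 and -1.48, and Prkcq -0.55 and -0.7. Lck differed by -0.66 ± 0.09 in Th9 (adjusted p = 9.48e-05) and -0.62 ± 0.09 in Th2 cells (adjusted p = 0.000164), with all Treg arrays above the other 9. Zap70 alone among the kinases was not lower: it gave 0.29 ± 0.2 in Th9 cells (adjusted p = 0.214) and was called higher in Th2 cells at 0.52 ± 0.2 (adjusted p = 0.0384), although Th2 and Treg arrays overlapped. That call was lost without Th2 array 1 or 2 or Treg array 1 or 2, on slide 1 alone (adjusted p = 0.0959) and under quantile normalization (adjusted p = 0.147).

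Adaptors had members on both sides, with 3 higher and 2 lower in Th9 cells and 3 higher and 4 lower in Th2 cells. Trat1 was 4.54-fold higher in Th9 (log2 difference 2.18 ± 0.22, adjusted p = 1.05e-05) and 2.3-fold higher in Th2 cells (log2 difference 1.2 ± 0.22, adjusted p = 0.00077), and no array of either group reached down to the Treg arrays. Sos1 had levels of -1.53, -1.44 and -1.5 in stimulated Th9 cells, -0.34, -0.8 and -0.85 in Th9 cells, -0.19, -0.24 and -0.3 in Th2 cells and -2.08, -1.82 and -1.69 in Treg cells. Treg arrays were the lowest. Sos1 was 2.3-fold higher in Th9 (log2 difference 1.2 ± 0.14, adjusted p = 3.55e-05) and 3.08-fold higher in Th2 cells (log2 difference 1.62 ± 0.14, adjusted p = 3.85e-06), while a dimmer probe gave 0.35, not called, and 0.6. Malt1 was higher by 0.49 ± 0.19 in Th9 cells (adjusted p = 0.0397), a call lost on leaving out any of 5 arrays (Th9 1, 2 or 3, Treg 1 or 2), and by 0.72 ± 0.19 in Th2 cells (adjusted p = 0.00616), while its second probe was called in neither (0.06 and 0.37). Lat was lower in both, at -0.89 ± 0.13 and -0.82 ± 0.13 (adjusted p = 0.000129 and 0.000239), and so was Vav1 at -0.5 and -0.45. Grap2 and Plcg1 were called lower in Th2 cells, at -0.89 and -0.45, and each has another probe called the opposite way in that comparison (1.27 and 2.28). In Th9 cells, where neither was called, these further probes were called higher (1.01 for Grap2 and 2.58 for Plcg1). With slide as a block the brightest probe of Grap2 was called lower in Th9 cells (-1.12, adjusted p = 0.00342). The call of Plcg1 in Th2 cells was also lost without Th2 array 3 or Treg array 2 or 3. Lcp2, Bcl10 and Rasgrp1 were called in neither, but a second probe of Bcl10 was called lower in both (-1.43 and -1.18) and one of Rasgrp1 higher in Th2 cells (0.93).

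Regulators were lower for 10 of 13 members in each comparison, 9 of them in both, and 1 was higher in both. Cblb, a ubiquitin ligase that restrains T cell activation, had levels of -2.17, -3.22 and -3.4 in stimulated Th9 cells, -2.36, -3.27 and -4.15 in Th9 cells, -2.59, -2.65 and -3.35 in Th2 cells and -0.22, -0.49 and -0.76 in Treg cells. Treg arrays lay above all others. Cblb was 6.8-fold lower in Th9 (log2 difference -2.77 ± 0.44, adjusted p = 0.000268) and 5.17-fold lower in Th2 cells (log2 difference -2.37 ± 0.44, adjusted p = 0.000772). A second probe went the same way, at -2.83 in Th9 and -3.16 in Th2 cells, both called. That probe was well above background on the Treg arrays alone, so these values do not measure the size of the difference. With slide as a block the Th9 value of the brighter probe was -1.93 and not called (adjusted p = 0.107). Dgka had levels of 3.66, 3.89 and 3.88 in stimulated Th9 cells, 5.32, 5.12 and 4.95 in Th9 cells, 5.37, 5.31 and 5.1 in Th2 cells and 6.97, 7.17 and 7.31 in Treg cells. Stimulated Th9 arrays were the lowest and Treg arrays the highest, with Th9 and Th2 arrays overlapping between them. Dgka was 4.04-fold lower in Th9 (log2 difference -2.02 ± 0.13, adjusted p = 4.66e-07) and 3.69-fold lower in Th2 cells (log2 difference -1.89 ± 0.13, adjusted p = 7.67e-07). Ubash3b (STS-1), a phosphatase that acts on Zap70, had levels of 3.02, 2.87 and 2.44 in stimulated Th9 cells, 2.22, 2.61 and 2.42 in Th9 cells, 2.31, 2.27 and 2.06 in Th2 cells and 3.59, 3.65 and 3.94 in Treg cells. Its Th9 and Th2 arrays overlapped each other and not the Treg arrays. Ubash3b gave -1.31 ± 0.17 in Th9 (adjusted p = 5.49e-05) and -1.51 ± 0.17 in Th2 cells (adjusted p = 1.87e-05). Ptprc gave -1.53 ± 0.11 and -1.05 ± 0.11 (adjusted p = 1.05e-06 and 1.64e-05), and Dgkz -1.42 and -1.23.

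Ptpn2, a phosphatase of Lck, Fyn and cytokine signalling, was the regulator that was higher, with levels of 5.43, 5.63 and 5.32 in stimulated Th9 cells, 5.63, 5.88 and 5.79 in Th9 cells, 5.88, 5.91 and 5.71 in Th2 cells and 4.07, 4.09 and 4.28 in Treg cells. All 9 arrays of the other groups lay above the Treg arrays. Ptpn2 was 3.08-fold higher in Th9 (log2 difference 1.62 ± 0.12, adjusted p = 8e-07) and 3.22-fold higher in Th2 cells (log2 difference 1.69 ± 0.12, adjusted p = 6.38e-07), with 2.77 and 3.48 from its second probe. Sit1, Ptpn22, Sla and Csk were lower in both, at -0.99, -0.59, -0.72 and -0.3 in Th9 and -1.02, -0.53, -0.96 and -0.73 in Th2 cells. The Th9 call of Csk was lost without Th9 array 1 or 2 or Treg array 2 or 3, and that of Sla without Th9 array 2 or 3 or Treg array 3. Second probes of Csk and Sla gave 0.11 and -0.18 in Th9 cells, neither called. With slide as a block Ptpn22, Sla and Csk lost their Th9 calls, and Ptpn22 and Sla their Th2 calls. Pag1 was called in Th9 cells (-0.95, adjusted p = 0.000601) and gave 0.06 in Th2 cells, Ptpn6 was called in Th2 cells (-0.45, adjusted p = 0.00663, with -0.27 from a second probe, not called) and gave -0.24 in Th9 cells, and Ubash3a was called in neither.

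Of the 72 other pathway genes, Th9 cells had 15 higher and 34 lower (20.8% and 47.2%) relative to Treg cells, and with slide as a block 6 were higher. Th2 cells had 15 higher and 31 lower (20.8% and 43.1%). Rnf128 (GRAIL), a ubiquitin ligase of anergic T cells, was the highest in both, at 5.95 ± 0.31 and 6.14 ± 0.31 (adjusted p = 9.24e-08 and 7.73e-08). Tec, a kinase related to Txk, gave 2.12 and 2.13, opposite in sign to Txk, and Nf1, which switches Ras off, 2.28 and 1.83. The adaptor gene Lax1 was the lowest in both, at -3.13 ± 0.1 and -3.74 ± 0.1 (adjusted p = 4.7e-09 and 1.93e-09). Ppp3ca and the calcium channel gene Orai2 followed in Th9 cells, at -2.7 and -1.96, and the exchange factor gene Vav2 and Sla2 in Th2 cells, at -1.76 and -1.73.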

How the data were processed

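Total RNA of 12 samples was labelled with Cy3 and hybridised to one-colour Agilent arrays. Per the file headers, Agilent Feature Extraction 10.5.1.1 produced the spot intensity values in the deposited scanner files, which are corrected for background on each array and not scaled between arrays. A deposited value table on the log2 scale served as an alternative: it correlated at 0.99958 to 0.99997 with the scanner values, and its medians of 5.171 to 5.174 are nearly equal. How the authors scaled it is not stated in these sources.

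Control spots and outlier spots were left out, spots of a probe were averaged, and probes well above background on at least 3 of 12 arrays were tested. Probes were named through RefSeq (GRCm38.p6): 24375 by accession, 6301 by symbol, 2426 by an older symbol, and 8072 kept the array's name. The 12 arrays were fitted with limma 3.58.1 in R 4.3.3 (1 mean per group, eBayes, 8 residual degrees of freedom), with Benjamini-Hochberg adjustment over 17925 genes, and the fit was tested on simulated data. No probe was saturated, and the number of arrays limits the precision.

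Members and lists were chosen with earlier results of these data known. Every member is described by role. Values on each array are given for the 4 called members with the largest increase and the 4 with the largest decrease in a comparison, and for Cd3e, Cd4, Cd28, Lck, Zap70, Lat and Ptprc. Of 72 other pathway genes, the 3 largest called changes in each direction are named. Replicate numbers were taken to pair Th9 and Th2 arrays, because same-numbered arrays deviated from their group means together (correlations of 0.201, 0.185 and 0.411). The alternatives were other scalings, background correction, filters, probe rules, the deposited table, slide or replicate as a block, and leaving out arrays.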

Additional observations from a re-analysis of the deposited data

How the results depend on the processing

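Of the 8 counts of members called, 5 stayed within 1.5 times their value under all alternatives other than leaving out 1 array: 19 lower after stimulation (16 to 24), 4 higher and 22 lower between Th9 and Treg cells (3 to 4 and 15 to 25), and 5 higher and 25 lower between Th2 and Treg cells (4 to 7 and 19 to 27). The 10 members higher after stimulation became 5 under quantile normalization, with the deposited log2 table, with slide as a block and within 1 slide. In the last 2 settings stimulated array 3 alone is set against the Th9 arrays. The 2 members higher in Th9 than in Th2 cells became 6 under normexp background correction, 5 under quantile normalization, 5 with the deposited table and 0 with slide as a block, and the 4 lower became 0 with slide as a block. Of the 72 other pathway genes, the 5 higher in Th9 than in Th2 cells became 12 under normexp, 8 under quantile normalization, 8 with the deposited table and 0 with slide as a block. The 8 lower became 3 with that block, with which the 15 higher between Th9 and Treg cells became 6. Over all genes, slide as a block left 188 higher and 129 lower between Th9 and Th2 cells (1391 and 1658 without it) and 3156 and 3529 between Th9 and Treg cells (5153 and 6321 without it). Leaving out 1 array gave 8 to 11 higher and 16 to 20 lower after stimulation, 0 to 2 and 2 to 4 between Th9 and Th2 cells, 3 to 5 and 20 to 23 between Th9 and Treg cells, and 4 to 5 and 24 to 26 between Th2 and Treg cells. Of 29, 6, 26 and 30 called members in these 4 comparisons, 22, 2, 23 and 28 kept their call whichever array was left out.

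Some differences turned. After stimulation Lck was called lower under quantile normalization and with the deposited table (-0.22 each), and with the mean of a gene's probes Cd247 was called lower (-1.12) and Ptpn2 gave 0.27. With that mean Plcg1 was called higher in Th9 (0.97) and in Th2 cells (0.55) than in Treg cells, which follows its dimmest probe. The values of Cd247 and Ptpn2 with that mean likewise follow their dimmer probes (-2.79 and -1.95 for Cd247, 0.85 for Ptpn2). The cause of the change in Lck was not tested. Normexp background correction moved the median of all genes after stimulation to 0.12 (0.02 without it).

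With replicate number as a block in a fit of every group, 2 members were higher and 4 lower between Th9 and Th2 cells. They were the same 6 as without the block. This fit gives all groups the same replicate effects, so it does not pair Th9 with Th2 arrays alone. A fit limited to that pairing was not run, and the p-values given above leave the pairing out. For the other comparisons the numbers were not taken to pair the arrays: correlations of same-numbered arrays were 0.095 to 0.209 for stimulated Th9 and Th9, 0.048 to 0.141 for Th9 and Treg and -0.007 to 0.025 for Th2 and Treg, although in the first pair of groups and in the second 6 of 6 arrays correlated best with their own number. There the block gave 9 higher and 19 lower, 3 and 23, and 4 and 25 members.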
